A study of Mus musculus with 576 samples.

Results

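The 48 genes described here act in G2 phase and mitosis, and were examined in single cells of the embryonic mouse pancreas. They were chosen as a list of gene symbols, all 48 of which are among the 36658 genes of the 3 count tables. All are annotated as protein coding, on 17 chromosomes. Cells carrying GFP were sorted from dorsal pancreata of E12.5 embryos and profiled by Smart-seq2, a method that makes 1 library per cell in a plate well and attaches no molecular identifiers. Nkx2.5-Cre;mTmG embryos (the Nkx2.5 line) and Nkx3.2-Cre;mTmG embryos (the Nkx3.2 line) switch a membrane reporter from Tomato to GFP in cells in which the Cre driver has been active and in all cells that descend from them, so GFP does not show that the driver was still expressed. Prox1-GFP embryos (Prox1 line) carry a transgene in which Prox1 regulatory sequence drives GFP. Each line filled 2 plates of 96 wells. No animal, embryo or litter is named, so a line counts as 1 sample with its cells as parts of it, and values are compared by size and by plate with no test. Of 576 cells, 549 passed the filters, with a median of 901156 counts per cell and a range from 224814 to 1512736.

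Entry into mitosis is driven by the kinase Cdk1 bound to a B-type cyclin, with Cks proteins as small partners. The Polo and Aurora kinases then build the spindle, kinetochore proteins join chromosomes to it, and the anaphase-promoting complex ends mitosis by marking cyclin B for destruction. Most of these genes are transcribed in G2 and mitosis and are low in cells that have left the cycle, which makes their transcripts a usual sign of dividing cells. In the pancreas at this stage epithelial progenitors and the surrounding mesenchyme divide, whereas cells that take the endocrine fate are known for leaving the cell cycle as they differentiate.

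Many promoters of mitotic genes hold a CCAAT box, bound by the factor NF-Y, and a cell cycle genes homology region (CHR), bound by the DREAM and MuvB complexes. Promoters from RefSeq (GRCm38.p6) were matched for 42 of the 48 members, 5 of them with more than 1 window, and searched on both strands for CCAAT and for TTTGAA over the 250 bases before the start of transcription. CCAAT was found for 34 of 42 members (80.95%), against 37.5% of all 27025 genes with such a window. TTTGAA was found for 16 members (38.1%), against 18.3% of all genes, and both for 14 members (33.3%), against 6.45%. The end letters of the 2 motifs allow them to share bases, but in the members' windows no matches did, and a match is a description of the sequence only. Of the 6 matched kinase and checkpoint members all 6 held CCAAT and none held TTTGAA, whereas both anaphase-promoting complex members held both. The 120 bases before the start are shown for members of different roles, with CCAAT and TTTGAA or their reverse complements in capitals: Cdk1, Cdc20, Top2a and Kif11 hold both, Plk1 and Ttk hold CCAAT alone, and Nusap1 and Ndc80 hold neither.
Cdk1 (chr10:69352913-69353032, - strand): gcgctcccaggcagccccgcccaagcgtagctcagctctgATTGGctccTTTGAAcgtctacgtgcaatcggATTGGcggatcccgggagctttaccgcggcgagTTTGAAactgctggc
Cdc20 (chr4:118437344-118437463, - strand): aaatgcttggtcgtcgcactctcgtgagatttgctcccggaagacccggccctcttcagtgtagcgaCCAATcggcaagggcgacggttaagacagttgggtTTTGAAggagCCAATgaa
Top2a (chr11:99024190-99024309, - strand): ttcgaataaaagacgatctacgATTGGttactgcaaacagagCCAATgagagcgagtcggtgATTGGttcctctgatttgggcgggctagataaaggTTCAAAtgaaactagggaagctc
Kif11 (chr19:37376262-37376381, + strand): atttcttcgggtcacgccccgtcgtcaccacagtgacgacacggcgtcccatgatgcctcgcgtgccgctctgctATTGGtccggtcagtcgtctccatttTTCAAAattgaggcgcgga
Plk1 (chr7:122159315-122159434, + strand): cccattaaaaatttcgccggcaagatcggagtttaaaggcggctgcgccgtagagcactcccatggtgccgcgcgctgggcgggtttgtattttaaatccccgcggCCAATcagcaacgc
Ttk (chr9:83834569-83834688, + strand): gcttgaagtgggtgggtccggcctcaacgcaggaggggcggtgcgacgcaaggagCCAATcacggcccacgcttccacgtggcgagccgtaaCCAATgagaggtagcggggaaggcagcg
Nusap1 (chr2:119618178-119618297, + strand): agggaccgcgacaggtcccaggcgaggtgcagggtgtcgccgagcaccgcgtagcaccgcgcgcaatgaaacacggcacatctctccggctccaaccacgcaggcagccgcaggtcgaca
Ndc80 (chr17:71526858-71526977, - strand): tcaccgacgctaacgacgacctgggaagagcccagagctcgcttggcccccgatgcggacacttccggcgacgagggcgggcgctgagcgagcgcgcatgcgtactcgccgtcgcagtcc
With positions counted back from the first transcribed base, the nearest TTTGAA begins at -15 in Cdk1, -18 in Cdc20, -19 in Kif11 and -23 in Top2a. The nearest CCAAT lies upstream of it in Cdk1 (-48), Kif11 (-45) and Top2a (-58), but downstream of it in Cdc20 (-8).

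Cells were placed in 4 states by clusters and lists of marker genes that hold no member. Endocrine cells (20) and other epithelial cells (86) came from the Prox1 line only. Mesenchymal cells numbered 87 and 81 on the plates of the Nkx2.5 line (6A, 6B), 92 and 76 on those of the Nkx3.2 line (7A, 7B), and 34 and 44 on those of the Prox1 line (8A, 8B). There were 5 mesothelial cells in the first line, 23 in the next and 1 in the last. Clusters were built on variable genes from which the members and other cell cycle genes were left out. When each cell was given a state by its own markers, 6 cells changed state. All 13 markers of the endocrine list were detected in endocrine cells, with a median summed level of 27599 CPM (counts scaled to a total of 1000000) in 18 of them, against 2.73 CPM in other epithelial cells, where Ins1, Ins2 and Fev were at 0. Liver markers, among them Alb and Afp, summed to 602 CPM in endocrine and 162.7 CPM in other epithelial cells, and their part in the results was not tested. Immune markers were over 1000 CPM in 1 mesenchymal cell and endothelial markers at most 617 CPM in any cell, with Cdh5 and Cldn5 at 0 in every state. Each line filled its own plates, so in every comparison between lines an effect of plate cannot be told apart from the line. The Prox1 libraries also carry a separate run of numbers, so for them a library batch cannot be told apart from the line. A higher level in a group can come from more cells that hold the transcripts or from more transcripts in each, which the numbers of cells given beside the levels separate in part.

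The 48 members together made up 0.221% of the counts of endocrine cells and 0.730% of those of other epithelial cells. In CPM of the summed counts, with exact 95% Poisson intervals that cover counting error only, this was 2212 CPM (2189 to 2235) in endocrine cells and 7302 CPM (7282 to 7322) in other epithelial cells. Mesenchymal cells held 6406 CPM in the Prox1 line. Mesenchymal cells of the Nkx2.5 driver held 5014 CPM, against 3836 CPM for those of the Nkx3.2 driver. Mesothelial values were 4958 CPM for the 5 Nkx2.5 cells, with 4715 CPM for the 23 Nkx3.2 cells. The plates of a line differed as well. Endocrine cells held 2302 CPM on plate 8A and 2137 CPM on plate 8B, other epithelial cells 5834 and 8981 CPM, and mesenchymal cells of the Prox1 line 4645 and 7626 CPM. In the Nkx2.5 line mesenchymal cells held 4486 CPM on plate 6A and 5581 CPM on plate 6B, and in the Nkx3.2 line 3541 CPM on 7A and 4296 CPM on 7B. The endocrine values lie below those of every plate of epithelial and mesenchymal cells, but above those of the 3 mesothelial cells on plate 6A (1841 CPM), the 3 on 7A (1490.2 CPM) and the 1 on 8B (681 CPM). The values of the 3 mesenchymal groups are close enough that plate 8A of the Prox1 line lies between the 2 plates of the Nkx2.5 line. Among the 6 groups with at least 20 cells, 40 of 48 members were lowest in endocrine cells, 30 were highest in other epithelial cells and 15 in mesenchymal cells of the Prox1 line. The share of all genes lowest or highest in these groups was not computed, so these counts are descriptions without a yardstick.

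**Figure D1:**
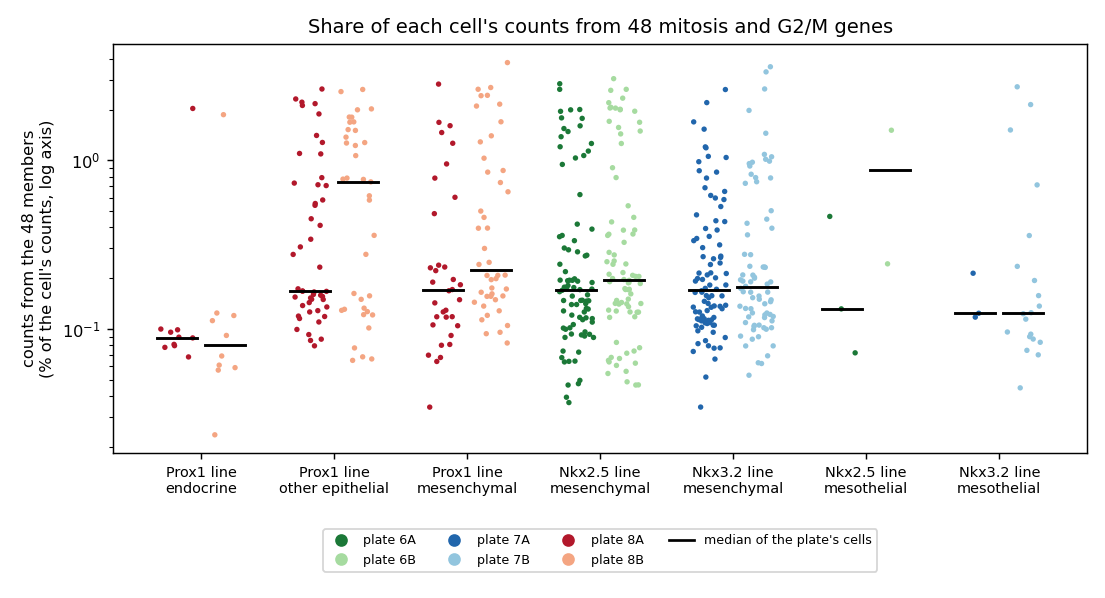
Each point is 1 cell, plotted as the percent of its counts that came from the 48 members (log axis) by line and state, with the plates of a line side by side and a bar at the median of each plate. Over both plates the median cell lies at 0.0888% among endocrine cells, 0.291% among other epithelial cells and 0.173 to 0.197% among the mesenchymal groups, and 1 endocrine cell on each plate lies far above the others.

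Most cells held either few members or most of them. Each cell was thinned to 100000 counts, the lowest depth the filter allows, and a member was taken as detected with at least 1 count. The median endocrine cell held 8 members, against 25.5 in other epithelial cells, 11.5 in mesenchymal cells of the Prox1 line, 9 for the Nkx2.5 driver and 13 for the Nkx3.2 driver. At least 24 members were detected in 44 of 86 other epithelial cells (51.2%, exact 95% binomial interval 40.1 to 62.1%) and in 2 of 20 endocrine cells (10%, 1.24 to 31.7%). The intervals over cells cover the sampling of cells within a line only, since each line is 1 sample, and the shares are descriptions. In mesenchymal cells the share was 32.1% (21.9 to 43.6%) in the Prox1 line, 22.6% (16.5 to 29.7%) for the Nkx2.5 driver and 26.8% (20.3 to 34.2%) for the Nkx3.2 driver, and in mesothelial cells of the Nkx3.2 line 17.4% (4.95 to 38.8%). The share was lower in the Nkx2.5 than in the Nkx3.2 line although its level in CPM was higher, so no order of these lines is read from it. With a limit of 16 members these shares were 38.5% for Prox1, 26.2% for Nkx2.5 and 42.3% for Nkx3.2, so that the order of the lines changed with the limit. Without thinning the shares were 53.5% in other epithelial, 10% in endocrine, and 34.6%, 24.4% and 31.6% in the mesenchymal cells of the Prox1, Nkx2.5 and Nkx3.2 lines. Between these extremes, 16 to 23 members were found in 0 of 20 endocrine, 4 of 86 other epithelial, 5 of 78 Prox1, 6 Nkx2.5 and 26 Nkx3.2 mesenchymal cells. The last 2 are 3.57% of the Nkx2.5 and 15.5% of the Nkx3.2 mesenchymal cells.

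**Figure D2:**
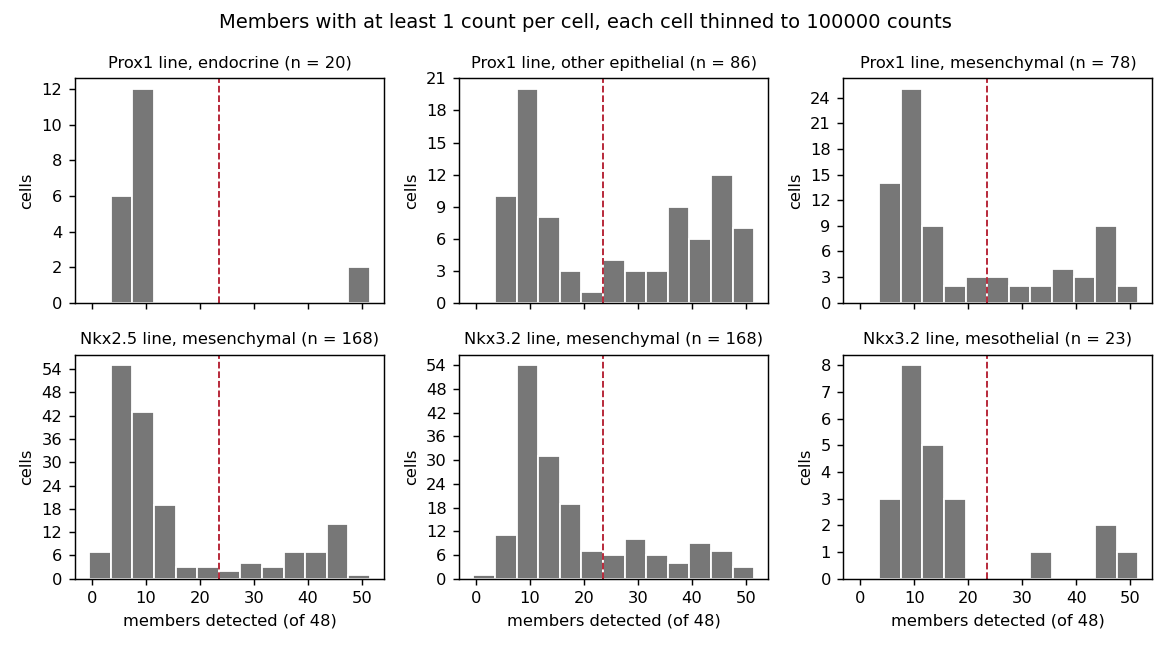
Histograms of the number of the 48 members detected per cell after thinning to 100000 counts, for the 6 groups with at least 20 cells; bars are numbers of cells, in bins of 4 members, and the dashed line separates fewer than 24 from 24 or more. Other epithelial cells divide into 42 cells below and 44 above the line, and endocrine cells into 18 with at most 11 members and 2 with all 48.

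Endocrine cells were compared with the other epithelial cells of the same line and plates. The summed level of the members was 3.30-fold lower in endocrine cells, and lower on both plates, at 0.395 of the epithelial level on 8A and 0.238 on 8B. A member was called lower or higher when its summed counts differed at least 2-fold and it lay on the same side on both plates, by any amount, among genes with a mean of at least 5 CPM. By this rule 40 of 48 members were lower and 0 were higher, whereas 22.8% of 11619 genes were lower and 17.5% higher. The median log2 ratio was -1.99 over members and -0.09 over all genes.

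The 7 members of the cyclin-kinase group were all lower in endocrine cells, 4.85-fold in sum. Values are given for plate 8A and then 8B. Cdk1, the kinase that starts mitosis, was at 51.9 and 68.5 CPM in endocrine and 169.3 and 293 CPM in other epithelial cells. Ccnb1, the main mitotic cyclin, was at 63.7 and 58.9 CPM against 303 and 549 CPM, 6.84-fold lower when plates were summed. Ccnb2, the other B-type cyclin, was at 32.5 and 52.6 CPM against 170.8 and 300.0 CPM. In none of these 3 did the plates of the 2 states overlap. Cks1b, a Cdk1 partner also used at the G1 to S step, was found in 90% of endocrine cells and 97.7% of other epithelial cells at equal depth, but at 70.9 and 62.9 CPM against 284 and 405 CPM. Its paralog Cks2 was at 43.5 and 30.7 CPM against 95.8 and 123.7 CPM, in 40% and 75.6% of cells. Cdc25c, the phosphatase that activates Cdk1, was low in both, at 7.85 and 5.76 against 20.5 and 26.3 CPM. Cks1b thus stood apart from the cyclins in being detected in nearly every cell of both states while differing 5.12-fold in level. Per kilobase of exon, Cks1b was the highest member in both, at 59.1 CPM per kilobase in endocrine and 303 in other epithelial cells, where Cdc20 followed at 166.4 and Cks2 at 157.3 CPM per kilobase.

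Of 7 mitotic kinases and checkpoint members 6 were lower in endocrine cells, with Nek2 the exception. Bub1b, the checkpoint protein that restrains Cdc20, had the lowest ratio of all members, at 5.85 and 6.31 CPM in endocrine cells and 110.2 and 144.4 CPM in other epithelial cells, a 20.7-fold difference. Plk1, the Polo kinase, was at 24.5 and 44.7 CPM against 127.1 and 202 CPM. The Aurora kinase of the spindle poles, Aurka, was at 10.5 and 44.5 CPM against 101.7 and 154.5 CPM, and that of the centromere, Aurkb, at 15.7 and 24.5 against 108.1 and 170.8 CPM. Aurka differed 4.35-fold and Aurkb 6.71-fold when plates were summed, and the 2 endocrine plates differed more for Aurka than for Aurkb. Among the 18 endocrine cells with at most 11 members, 3 had a count of Aurka and 0 of Aurkb. These endocrine plate values thus rest on few cells. Ttk, the kinase that starts the spindle checkpoint, was at 3.59 and 9.41 against 37.6 and 41.6 CPM. Nek2, a centrosome kinase, was at 14.1 and 16.4 against 20.8 and 33.9 CPM, which is lower on both plates but by less than 2-fold in sum. In the same 18 cells Nek2 was at 0.0609 CPM, so its endocrine level came almost wholly from the other 2 endocrine cells.

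Both members of the anaphase-promoting complex group were lower. Cdc20, its activator, was at 59.3 and 20.9 CPM in endocrine cells and 232 and 401 CPM in other epithelial cells, 8.10-fold lower in sum. Its ubiquitin-conjugating enzyme Ube2c was at 93.1 and 76.9 CPM against 206 and 263 CPM, a smaller difference of 2.76-fold. In the 18 endocrine cells with at most 11 members Cdc20 was at 10.6 and Ube2c at 7.39 CPM. The smaller fold of Ube2c thus rests on the 2 endocrine cells with all 48 members.

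All 9 centromere and kinetochore members were lower in endocrine cells. Birc5, a subunit of the chromosomal passenger complex, was at 35.9 and 46.4 CPM against 161.4 and 274 CPM. Cenpa, the histone that marks centromeres, was at 48.6 and 55.3 against 152.4 and 274 CPM, and was still found in 35% of endocrine cells. Cenpe, a kinetochore motor, was found in 10% of endocrine and 53.5% of other epithelial cells, at 46.2 and 36.1 against 119.7 and 198 CPM. Cenpf, a large kinetochore protein, was nearest between states on plate 8A, at 84.1 and 55.8 against 109.2 and 240.0 CPM. In the 18 endocrine cells with at most 11 members Cenpf was at 0.261 CPM, so its endocrine level came almost wholly from the other 2 endocrine cells. Ndc80, which binds microtubules, differed least in this group (2.16-fold), at 27.1 and 25.9 against 43.5 and 72.4 CPM. Hjurp, the chaperone of Cenpa, was detected in 35% of endocrine cells and 80.2% of other epithelial cells. With plates summed, Hjurp was at 63.3 CPM in endocrine and 224 CPM in other epithelial cells.

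Of 15 spindle and cytokinesis members 12 were lower, and Ckap5, Dlgap5 and Gtse1 were not called. Kif20b, a motor of cytokinesis, and Nusap1, which bundles spindle microtubules, had the lowest ratios, at 15.5 against 120.2 CPM and 19.1 and 14.4 against 75.3 and 161.6 CPM. Kif11, the motor that parts the spindle poles, was at 14.1 and 15.7 against 48.7 and 122.6 CPM. Kif23, a motor of the midzone, was at 11.97 and 19.7 against 60.1 and 102.8 CPM, and Tpx2, which activates Aurka, at 38.98 and 24.5 against 122.6 and 253 CPM. The members of this group not given by plate, among them the cytokinesis genes Anln and Ect2, differed by 1.68- to 7.74-fold. Kif20b, Nusap1, Kif11, Kif23 and Tpx2 differed by between 4.94-fold and 7.74-fold. Ckap5, a microtubule polymerase that cells also use outside mitosis, was the only member not lower in endocrine cells, at 156.4 and 81.9 CPM against 89.1 and 135.7 CPM. It was higher on 8A and lower on 8B, with a ratio of 1.04. Dlgap5, a spindle protein, had the next highest ratio (0.863), with endocrine plates at 14.2 and 73.1 CPM on either side of the epithelial 43.8 and 65.1 CPM.

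Of the 4 chromosome members Top2a, Mki67 and Cdca2 were lower. Top2a, which untangles sister chromatids, was at 108.9 and 143.9 CPM in endocrine and 271 and 481 CPM in other epithelial cells. Mki67, the antigen of Ki-67 staining that coats mitotic chromosomes, was at 100.6 and 49.1 against 170.7 and 244 CPM, and in 15% against 52.3% of cells. Smc4, of the condensin complex, was at 129.8 and 118.9 against 157.3 and 220.1 CPM, at a ratio of 0.664. Top2a, Mki67 and Smc4 thus differed 2.88-, 2.83- and 1.51-fold. In the 18 endocrine cells with at most 11 members, Top2a was at 7.64, Mki67 at 7.65 and Smc4 at 58.5 CPM. The endocrine levels of Top2a and Mki67, and so their folds, thus rest mostly on the other 2 endocrine cells.

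The nuclear envelope and chromatin group differed least, 1.88-fold in sum, with 1 of 4 called. Lbr, the lamin B receptor, was the one called, at 44.5 and 60.5 CPM against 120.9 and 136.6 CPM. Tmpo, which encodes lamina-associated proteins, was at 113.3 and 111.8 against 177.6 and 175.98 CPM. Cbx5, the heterochromatin protein HP1 alpha, was at 187.6 and 219.5 against 380.5 and 434 CPM, just under 2-fold, and was found in 95% of endocrine cells. Anp32e, a chaperone that removes the histone H2A.Z, was at 157.4 and 85.6 against 233 and 182.3 CPM. These genes are used by cells in any phase, and all 4 were detected in at least 55% of endocrine cells at equal depth.

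**Figure D3:**
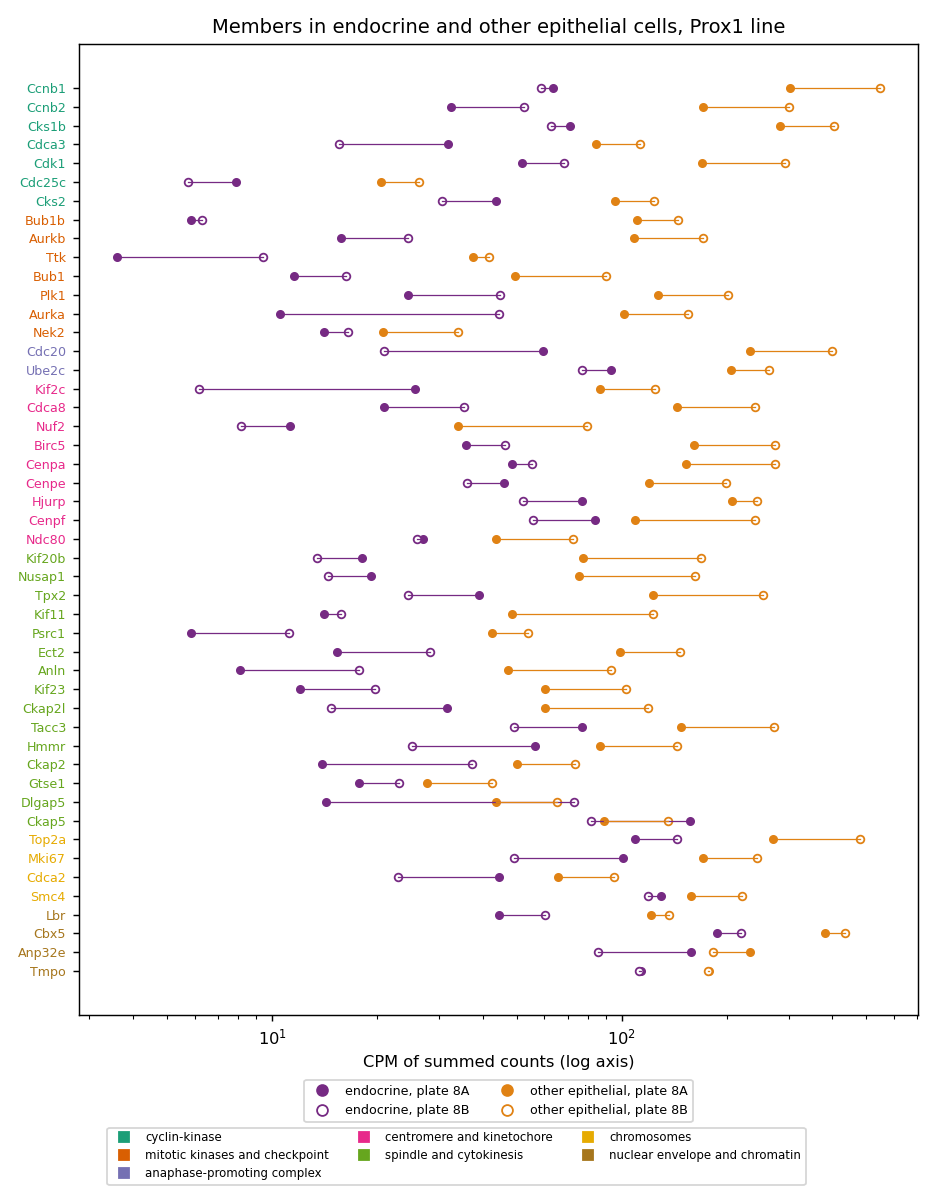
CPM of the summed counts (log axis) of each of the 48 members in endocrine (purple) and other epithelial cells (orange) of the Prox1 line, with filled points for plate 8A and open points for 8B joined by a line; gene names are coloured by role. For all members but Dlgap5 and Ckap5 the endocrine points lie to the left of both epithelial points.

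Within the endocrine cells most member counts came from 2 cells. These cells, 1 on each plate, carried all 48 members after thinning and 66.2% of the member counts of the 20 cells, with members making up 2.03% and 1.87% of their counts. The other 18 cells held 6 to 11 members each, at 0.0235 to 0.124% of counts. The cell on 8A held 64601 CPM of Gcg, the glucagon gene, 576 CPM of Chga, a granule protein, and 861 CPM of Ccnb1. The cell on 8B held 14409, 574 and 739.9 CPM of the same genes. Neurog3, the factor that starts endocrine fate, had 0 counts in both. In the S-phase list of 40 genes they held 4521 CPM, against 1037 CPM in the other 18.

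A well that received more than 1 cell could also hold both sets of genes, and no doublet caller was run. The 2 cells had 555406 and 695193 counts, below the median of the other 18 (793068), and 9663 and 9450 genes, above the highest of the other 18 (8994). Their 13 epithelial markers summed to between 1506 and 1939 CPM, within the range of the other endocrine cells (1303 to 6353) and below every other epithelial cell with 24 or more members (2904 or more). The lower and the higher of their mesenchymal marker sums were 178.2 and 483 CPM, with a highest value of 403 CPM in the other endocrine cells, and the collagen gene Col3a1 was at 0 in both. Without these 2 cells, an alternative chosen after seeing the data, the endocrine level of the members was 0.111 of the epithelial level in place of 0.303, and 45 members were lower. Leaving out the endocrine cells richest in members lowers this level by construction, and the share of all genes called was not computed for this setting. Leaving out only the cell with the most member counts in each state gave 0.211.

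In the other 18 endocrine cells 7 members, Cdk1, Plk1, Aurkb, Bub1, Cenpe, Kif2c and Ckap2l, had no count at full depth, which, with 3 of the 18 cells taken as the limit of a count of 0, allows up to 16.7% of cells to hold a count. Cdk1 was at 0 of 18 endocrine cells and, in thinned counts, in 13.2% of the 38 other epithelial cells with fewer than 16 members. Mesenchymal cells with fewer than 16 members held it more often, in 39.6% of 48 Prox1 cells, 36.1% of 97 Nkx3.2 cells and 31.5% of the Nkx2.5 cells. Hjurp showed a like spread among these low cells, from 27.8% of endocrine to 68.4% of other epithelial and 74.2% of Nkx3.2 mesenchymal cells. All these cells were picked by the number of members they hold. The endocrine cells hold at most 11, whereas the limit for the others was fewer than 16. A lower detection of single members in endocrine cells is thus partly built in, and no difference between states is read from it. The members most often left in the 18 endocrine cells at equal depth were Cbx5 (17 cells), Cks1b (16), Tmpo and Anp32e (14 each), Ckap5 (12), Smc4 (11) and Lbr (9).

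Of 40 S-phase genes, which copy DNA or supply its building blocks, 36 were lower in endocrine cells and 0 higher, and they summed to 1300.0 CPM against 5879 CPM. Mcm5, a subunit of the replication helicase, was at 7.61 against 193.4 CPM. Of 46 other mitosis genes with a mean of at least 5 CPM 38 were lower, and 1, the phosphatase Cdc25b, was higher, at 36.4 against 18.2 CPM. Of 10 such genes linked to cell cycle exit, 4 were higher (against 17.5% of all genes) and 0 lower. Cdkn1a, the inhibitor p21, was at 444 against 156.4 CPM. Btg2, which slows proliferation, was at 231 against 77.997 CPM, and the stress genes Gadd45a and Gadd45g were the other two. Cdkn1c, the inhibitor p57, differed by less than 2-fold, at 129.8 against 213 CPM, and was highest in mesenchymal cells of the Prox1 line at 1190.1 CPM. Of the 2 endocrine cells with all 48 members, the cell on 8A had Cdkn1a at 344 CPM and the cell on 8B at 949 CPM, on either side of the 444 CPM of the state.

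Other epithelial cells were then compared with mesenchymal cells of the Prox1 line. The summed member level was 1.14 times as high in epithelial cells, 1.26 on 8A and 1.18 on 8B. By the same rule 3 members were called, all higher in epithelial cells, which is 6.25% of members against 14% of all genes, and 0 members were lower against 13.3%. Hmmr, a spindle protein, was at 86.7 and 143.9 CPM in epithelial and 23.2 and 64.1 CPM in mesenchymal cells. Ect2, which triggers cytokinesis, was at 98.8 and 146.3 against 27.3 and 71.8 CPM, and Ube2c at 206 and 263 against 73.9 and 133.6 CPM. The lowest ratios were those of Ckap5 (0.591), at 136.2 and 223 CPM in mesenchymal cells, Nuf2 (0.793) and Cenpe (0.804). Hmmr, Ect2 and Ube2c each lay higher on the lower epithelial plate than on the higher mesenchymal plate, whereas Ckap5 was called in neither direction. Of 47 other mitosis genes 3 (Rangap1, Prc1 and Cep55) were higher and 0 lower, and of 40 S-phase genes 3 were higher and 1 lower. At equal depth 22 members were found in at least 50% of other epithelial cells, against 12 in mesenchymal cells of the Prox1 line and 7 in endocrine cells.

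**Figure D4:**
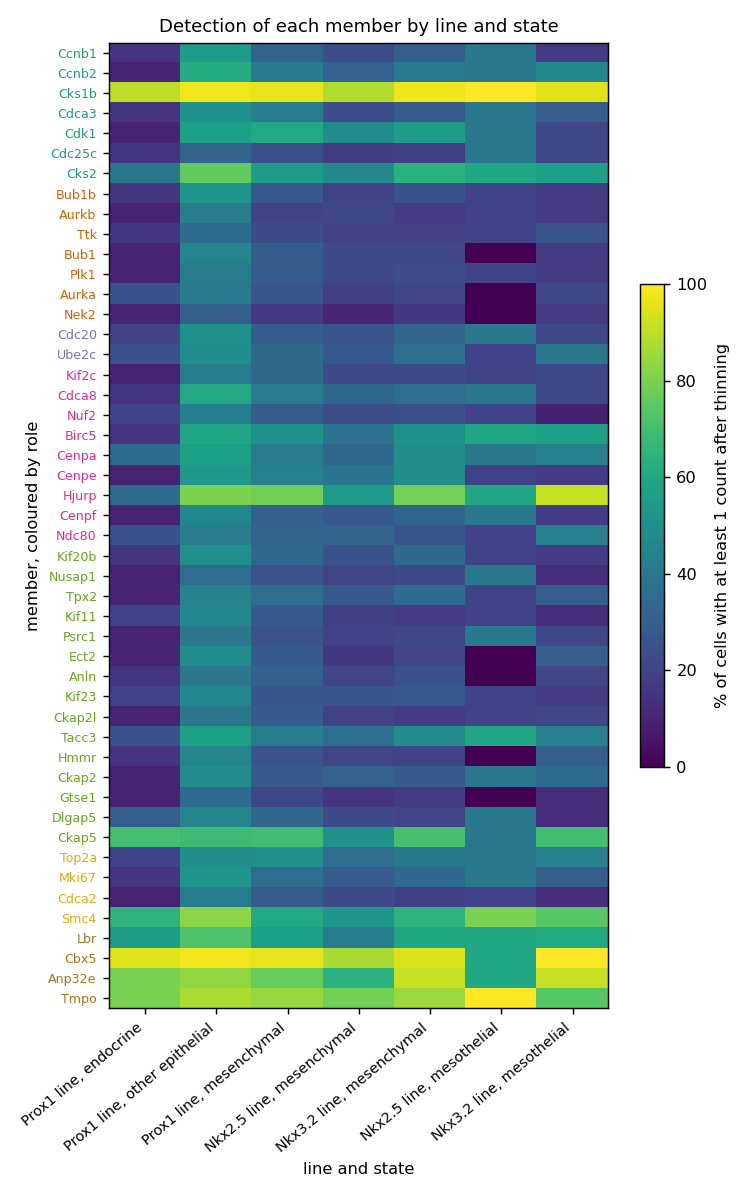
Percent of cells with at least 1 count of each member (rows, coloured by role) after thinning to 100000 counts, by line and state (columns), on a linear scale from 0 to 100%. Cks1b, Cbx5, Tmpo and Anp32e are found in most cells of nearly all groups, whereas most kinases and motors lie at or under 25% in endocrine cells and between 30 and 60% in other epithelial cells; the Nkx2.5 mesothelial column holds 5 cells only.

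Mesenchymal cells were compared between lines to see whether cells labelled through different drivers differ in these genes. Both comparisons use the same Nkx3.2 cells as reference. The members summed to 1.31 times the Nkx3.2 level in the Nkx2.5 line and 1.67 times in the Prox1 line. Over the 4 pairs of plates the ratio ran from 1.04 to 1.58 for the Nkx2.5 line, and from 1.08 to 2.15 for the Prox1 line. In the Nkx2.5 line 5 members were at least 2-fold higher in sum and higher on every pair of plates (10.4% against 4.20% of all genes) and 0 lower (against 5.63%). In the Prox1 line 11 were higher (22.9% against 4.02%) and 0 lower (against 4.53%). These counts changed with the plates: they were 2 without plate 6B and 1 without plate 7A for the Nkx2.5 line, up to 12 without 7B, and 4 without 8B for the Prox1 line. The S-phase list was instead highest in the Nkx3.2 cells, at 6140.1 CPM, with 5775 CPM for Nkx2.5 and 5497 CPM for Prox1, with 0 of 40 genes called in either comparison. Of the 47 other mitosis genes 5 were higher and 2 lower for Nkx2.5, and 6 higher and 0 lower for Prox1.

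Values of mesenchymal cells are given for plates 6A and 6B (Nkx2.5), 7A and 7B (Nkx3.2) and 8A and 8B (Prox1). Ccnb1 was at 164.9 and 213 CPM, 86.5 and 124.1 CPM, and 216 and 472 CPM, in that order. It was 3.63-fold higher in the Prox1 than in the Nkx3.2 line, with no overlap of plates, and 1.86-fold higher in the Nkx2.5 line. Its relative Ccnb2 was at 153.6 and 194, 145.04 and 168.1, and 159.3 and 332 CPM, so that the plates overlapped. Cdk1 was at 118.2 and 172.8, 96.9 and 162.98, and 144.4 and 193.1 CPM. Both cyclin partners Cks1b (266 and 312, 287 and 253, 243 and 323 CPM) and Cks2 (70.4 and 75.4, 60.8 and 76.2, 59.97 and 75.1 CPM) were nearly level, with the lowest ratios of the Prox1 comparison (1.06 and 1.03). Hjurp, the next lowest, was 1.20 times as high. Cdc25c was low in each line, at 12.3 and 44.04, 17.3 and 25.3, and 13.02 and 38.3 CPM, and its plates differed more than its lines. Ccnb1 was the cyclin-kinase member past 2-fold, in the Prox1 line.

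Among kinases, Aurka was at 53.2 and 48.4, 30.7 and 41.1, and 68.3 and 110.4 CPM, 2.68-fold higher in the Prox1 than in the Nkx3.2 line. Aurkb was at 85.04 and 94.3, 39.8 and 61.6, and 79.7 and 95.6 CPM. Plk1 was at 90.6 and 117.7, 55.3 and 66.1, and 50.005 and 150.6 CPM. The Prox1 plates of Plk1 lay on either side of both other lines, whereas both Aurora kinases were higher on every Nkx2.5 and Prox1 plate than on any Nkx3.2 plate. Bub1b was at 61.3 and 105.996, 61.6 and 73.6, and 49.1 and 122.2 CPM. Ttk was at 17.7 and 45.6, 18.7 and 25.4, and 33.1 and 20.8 CPM, and Nek2 at 8.94 and 11.1, 9.56 and 9.84, and 9.004 and 23.97 CPM. For these 3 the lines overlapped. Cdc20 was at 134.9 and 174.7, 97.01 and 130.6, and 108.8 and 305 CPM, past 2-fold in sum for the Prox1 line but with plate 8A below 7B, and Ube2c at 98.98 and 127.9, 62.01 and 120.1, and 73.9 and 133.6 CPM.

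At the centromere, Cenpe was higher in both lines than in the Nkx3.2 line, at 129.3 and 196, 78.5 and 94.3, and 134.3 and 236 CPM. Kif2c, a microtubule depolymerase, was past 2-fold in both, at 78.8 CPM in the Nkx2.5, 38.998 in the Nkx3.2 and 117.4 in the Prox1 line. Cenpa had the lowest ratio of the Nkx2.5 comparison (0.722), at 83.1 and 115.6, 126.99 and 152.2, and 123.2 and 313 CPM, so that both Nkx2.5 plates lay below both Nkx3.2 plates. Birc5 was at 99.3 and 147.1, 123.7 and 136.5, and 133.5 and 227 CPM, and did not separate the Nkx lines. Cenpf was at 57.8 and 92.3, 43.4 and 93.6, and 68.1 and 158.3 CPM, and Ndc80 at 30.7 and 58.05, 30.5 and 28.3, and 31.2 and 66.3 CPM. Ndc80 was lowest on both Nkx3.2 plates, by less than 2-fold in sum, and Cenpf was not.

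The largest ratio of each comparison belonged to a spindle member. Kif11 was at 34.96 and 37.1, 16.7 and 18.8, and 45.5 and 78.5 CPM, 2.05-fold higher in the Nkx2.5 and 3.71-fold higher in the Prox1 line. Ckap2l, a spindle protein also known as radmis, had the highest ratio in the Nkx2.5 line (2.92) and the third highest in the Prox1 line (3.34), at 91.8, 31.4 and 104.9 CPM. Nusap1 was at 67.7 and 77.4, 29.1 and 39.2, and 56.6 and 114.2 CPM, past 2-fold in both. For these 3 genes every plate of the Nkx2.5 and Prox1 lines was above both Nkx3.2 plates. Ect2 and Gtse1 went the other way in the Nkx2.5 line by less than 2-fold (0.813 and 0.736). Kif23 was at 48.6 and 37.2, 39.04 and 45.2, and 54.1 and 85.7 CPM, and Tpx2 at 103.6 and 138.5, 101.5 and 136.3, and 110.1 and 236 CPM. All lines overlapped for Tpx2, and the Nkx2.5 and Nkx3.2 lines overlapped for Kif23. Ckap5 was at 88.4 and 123.7, 89.8 and 115.01, and 136.2 and 223 CPM.

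Top2a, the chromosome member past 2-fold in both lines, was at 245 and 331, 130.4 and 161.7, and 211 and 354 CPM. Mki67 was at 119.8 and 214, 80.6 and 101.1, and 105.98 and 182.1 CPM, higher on every plate of both lines than on the Nkx3.2 plates but by less than 2-fold in sum. Smc4 was at 124.6 and 157.2, 86.5 and 115.1, and 151.6 and 167.7 CPM. The envelope and chromatin genes differed little. Tmpo was at 214 and 204, 132.8 and 159.9, and 191.4 and 192.4 CPM, and Lbr at 80.2 and 72.5, 86.7 and 77.6, and 94.7 and 102.9 CPM. Cbx5 was at 377 and 387, 328 and 319, and 371 and 435 CPM, and Anp32e at 151.7 and 153.9, 160.8 and 161.1, and 199 and 189.3 CPM. In sum this group was 1.15 times the Nkx3.2 level in the Nkx2.5 line and 1.26 times in the Prox1 line, against 1.80 and 1.86 times for the chromosome group. The median depth of these cells was 1054465 counts and 5833 genes for Nkx2.5, 897271 and 7314 for Nkx3.2, and 788866 and 6431 for Prox1, and the part of depth in these differences was not tested beyond thinning, after which 2 members were past 2-fold in the Nkx2.5 and 7 in the Prox1 line.

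**Figure D5:**
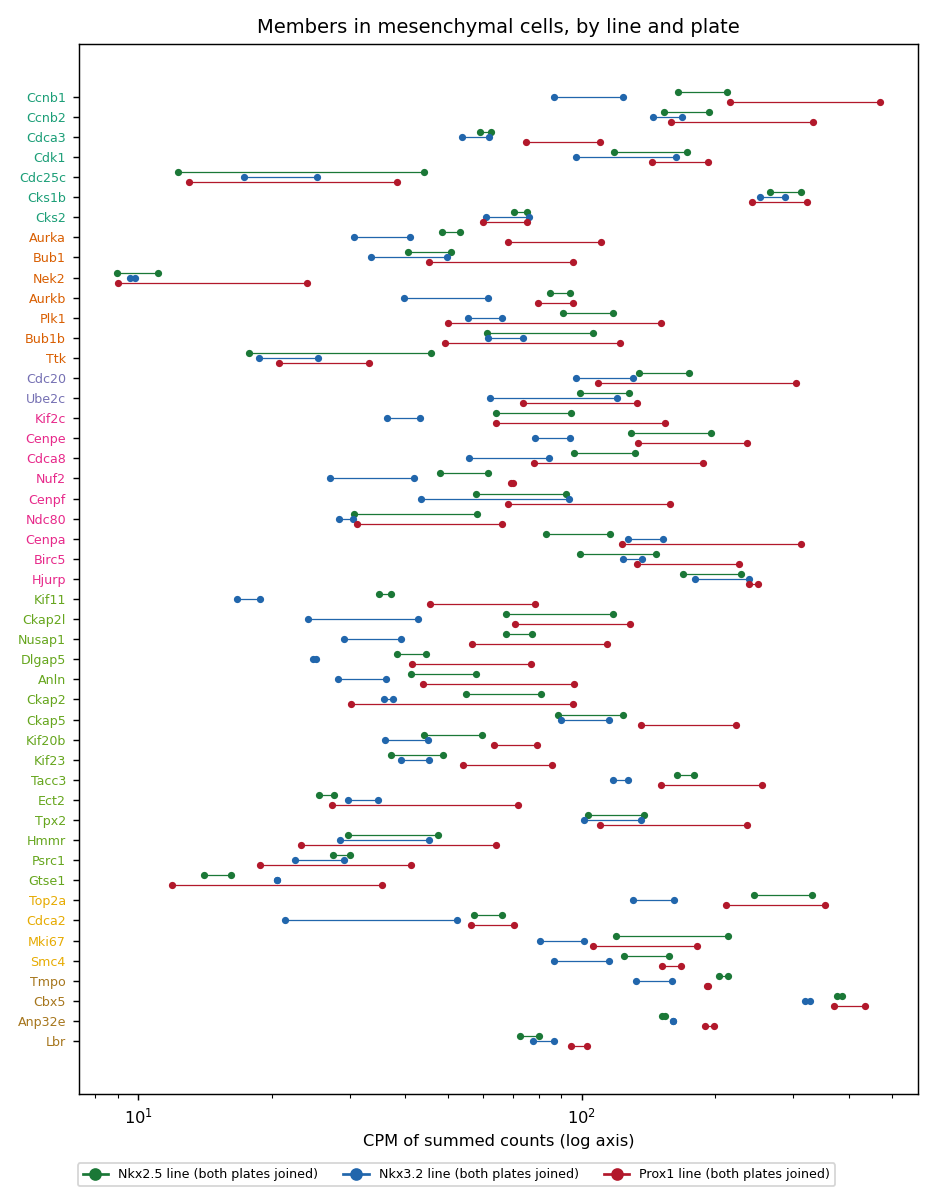
CPM of the summed counts (log axis) of each member in mesenchymal cells of the Nkx2.5 (green), Nkx3.2 (blue) and Prox1 (red) lines; the 2 points of a line are its plates. For Kif11, Ckap2l and Nusap1 the blue points lie left of all others, and for Cks1b and Cks2 the 3 lines overlap.

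Mesothelial cells, which cover the organ, were compared with mesenchymal cells of the same line. In the Nkx3.2 line the members summed to 1.23 times the mesenchymal level, but this was 1.27 on plate 7B (20 mesothelial cells) and 0.421 on 7A (3 cells). Of the members 1, Nuf2, was called lower (2.08% against 11.3% of all genes), at 13.2 against 32.8 CPM, and 0 were higher (against 8.49%). The highest ratios were those of Ckap2l (2.25), Bub1b (2.15) and Aurka (2.12), all of which had 0 counts in the 3 cells of 7A. After Nuf2 the lowest were Tmpo (0.640) and Cdk1 (0.689). The 2 cells with the most member counts held 53.7% of those of the 23, and without the cell with the most in each state the ratio was 0.911. In the Nkx2.5 line 5 mesothelial cells held 0.989 times the mesenchymal level, and 1 cell held 68.6% of their member counts. There 15 members were lower and 1, Ccnb2, was higher, where 32.6% of all genes were lower and 8.40% higher, so the share of lower members (31.3%) was near that of genes at large. Dlgap5 (3.87), Ccnb2 (2.41) and Cdc20 (2.11) had the highest ratios, and Aurka, Bub1, Ect2 and Gtse1 had 0 counts in the 5 cells. At these numbers of cells a plate value can rest on 1 cell.

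By plate, values are given for the Nkx2.5 line on 6A and 6B (3 and 2 mesothelial cells) and then for the Nkx3.2 line on 7A and 7B (3 and 20). Cdk1 was at 0 and 292, and 0 and 103.3 CPM, Ccnb1 at 41.6 and 525, and 0 and 255 CPM, and Ccnb2 at 216 and 664, and 65.1 and 172.7 CPM. Cks1b was at 251 and 569, and 139.9 and 207 CPM, Cks2 at 31.3 and 183.6, and 24.7 and 63.5 CPM, and Cdc25c at 1.17 and 33.5, and 0.456 and 29.4 CPM. The kinases Plk1 (0 and 76.3, 0 and 120.4 CPM), Aurka (0 and 0, 0 and 90.3 CPM), Aurkb (0 and 135.8, 0 and 92.05 CPM), Nek2 (0.537 and 0, 2.44 and 14.1 CPM), Bub1b (0 and 186.98, 0 and 174.5 CPM) and Ttk (0.134 and 107.2, 0 and 41.5 CPM) were at or near 0 on the plates with 3 cells. The 20 cells of 7B held all 6.

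Of the anaphase-promoting complex, Cdc20 was at 108.2 and 593, and 0 and 191.4 CPM, and Ube2c at 0 and 71.96, and 8.60 and 211 CPM. Of the centromere genes, Birc5 was at 175.8 and 209, and 52.5 and 213 CPM, Cenpa at 113.9 and 182.2, and 12.04 and 153.4 CPM, and Cenpe at 0 and 201, and 0 and 81.7 CPM. Cenpf was at 30.1 and 223, and 0.288 and 97.8 CPM, and Ndc80 at 0 and 91.3, and 11.2 and 43.5 CPM. Birc5 and Cenpa were found on every plate, whereas Cenpe had no count on either plate with 3 cells. The spindle genes Kif11 (0 and 22.2, 0 and 28.2 CPM), Kif23 (0.360 and 29.1, 0 and 82.7 CPM), Tpx2 (0 and 419, 26.7 and 166.9 CPM) and Nusap1 (37.97 and 100.99, 0 and 53.99 CPM) were higher on 7B than on 7A. Top2a was at 13.3 and 115.01, and 33.3 and 340.5 CPM, Smc4 at 49.8 and 194, and 119.6 and 156.6 CPM, and Mki67 at 17.4 and 86.9, and 0 and 89.7 CPM. Tmpo was at 135.04 and 351, and 38.7 and 103.5 CPM, Lbr at 14.3 and 98.999, and 120.7 and 87.3 CPM, Cbx5 at 159.1 and 207, and 318 and 330.3 CPM, and Anp32e at 61.3 and 110.2, and 185.2 and 170.1 CPM. Ckap5 was at 0.358 and 202, and 62.8 and 91.5 CPM. Smc4, Cbx5 and the envelope genes were thus present on the plates where most kinases and motors had no count. Of the 40 S-phase genes 5 were at least 2-fold lower in mesothelial cells of the Nkx3.2 line and 0 higher, and 12 were lower and 1 higher in those of the Nkx2.5 line, where 11.3% and 32.6% of all genes were lower. Of the other mitosis genes 1 of 47 was higher and 2 lower for Nkx3.2, and 1 of 44 higher and 14 lower for Nkx2.5. The shares of lower genes in both lists for Nkx2.5, and in the S-phase list for Nkx3.2, were thus near those of genes at large.

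Members varied together from cell to cell. In thinned counts the median Spearman correlation over 1128 pairs of members was 0.659 in 86 other epithelial cells, 0.591 in 78 mesenchymal cells of the Prox1 line, 0.547 in the Nkx2.5 and 0.445 in the Nkx3.2 mesenchymal cells. The cells of a group share their line and plates, and these are descriptions across cells. The summed members followed the other mitosis list more closely than the S-phase list, with 0.912 against 0.187 in other epithelial cells and 0.865 against 0.339 in Nkx3.2 mesenchymal cells. In the 20 endocrine cells the values were 0.165 and 0.499, the other way round. The closer relation to the other mitosis list held for each member in other epithelial cells, and for 47 of 48 in the mesenchymal cells of each line, Cbx5 being the exception in all 3. Cdk1 had the highest correlation with the S-phase list in Nkx3.2 mesenchymal cells, 0.513, followed by Cbx5 (0.452) and Smc4 (0.388). Ccnb2 (-0.246), Ckap5 (-0.247) and Cenpa (-0.126) were at the other end. Ccnb2 and Cenpa were also below 0 in the mesenchymal cells of the other lines.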

How the data were processed

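Dorsal pancreata of E12.5 embryos were dissociated with collagenase, and GFP+ cells were sorted into 96-well plates and profiled by Smart-seq2 with Nextera XT libraries and single-end reads. Per the study's methods and the submitters' processing notes, the authors trimmed reads with Trim Galore 0.6.5 quantified them with kallisto against mouse GRCm38 (mm10) and summed transcripts to genes with tximport, and the deposited values are estimated counts per gene, of which 36.05% of those above 0 are not whole. The annotation release is not given in the sources used here. No molecular identifiers were used, so PCR copies were counted and intervals cover counting error only.

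After the study's methods, a cell needed 1000 genes and 100000 counts, with no more than 30% of them mitochondrial, which left out 27 wells, all on counts. Counts without a gene symbol (0.605%) stayed in cell totals and were not described. The methods give 193 cells for the Prox1 line, whereas 192 were used here, all those the labels hold. Cells were clustered with Seurat 5.3.0 in R 4.3.3 (resolution 1.9) and clusters named from marker lists, of which no gene is a member. No doublets were removed. Counts were summed per line, state and plate and given as CPM (counts scaled to 1000000), with exact Poisson intervals for CPM and exact Clopper-Pearson intervals for shares of cells, both at 95%. Detection used counts rounded and thinned to 100000 per cell.

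Since no label names an animal, embryo or litter, each line was 1 sample and no p-value was computed. A gene was called at a fold of 2 or more with the same side on each plate, or on each pair of plates between lines, among genes with a mean of 5 CPM or more, and every gene was put through the same rule. Scripts were tested on simulated data. Given by plate were 31 members chosen by role, and in each comparison the 3 highest and 3 lowest ratios. The members, the marker lists and the other mitosis, S-phase (1 of 41 symbols, Mlf1ip, was not matched) and cell cycle exit lists were chosen with earlier results of these data known. Like-named copies of Ccnb1, Ccnb2 and Cks1b held 0.0234%, 0.968% and 0.174% of the counts of gene and copy. Alternatives were other cell filters, scales (edgeR 4.0.16 TMM), states, folds and detection limits, and leaving out plates or cells.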

Additional observations from a re-analysis of the deposited data

Results flagged for a closer look

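The 27 wells left out on counts were not part of any comparison, and still held member counts. They summed to 729.7 CPM of members (629 to 842, exact 95% Poisson interval), from 188.9 of 258922 counts, which is below the 2212 CPM of endocrine cells. More than 3 member counts were found in 5 of the 27 wells, and 1 well held 50.9% of the member counts. Of these wells 19 were from the Nkx2.5, 1 from the Nkx3.2 and 7 from the Prox1 line, with a median of 81 counts per well.

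For 2 members every plate of the Nkx3.2 line lay on one side and every plate of the Nkx2.5 line on the other when mesothelial cells were compared with mesenchymal cells. Ckap2, a spindle protein, was at 1.13 times the mesenchymal level for Nkx3.2, against 0.557 times for Nkx2.5. Anp32e was at 1.07 and 0.545 times. The difference between lines was not tested, and the plates hold 2 to 20 mesothelial cells. How many of all genes split between the lines in this way was not computed, so the count of 2 members has no yardstick. With so few plates in each line, some members can split in this way without any difference between the lines. No difference between the lines is therefore read from these 2 members.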

How the results depend on the processing

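Of 309 values under alternatives, 263 stayed within the spread between plates (1 SD, for ratios), 1.5 times (counts of members) or the binomial interval (shares of cells), and 46 did not. The spread comes from the same plates that are left out in turn, so a ratio without 1 plate is no independent check. For mesothelial over mesenchymal cells of the Nkx2.5 line, 0.410 and 1.58 both lay within this spread, though on either side of 1. The number of values that stayed is therefore not read as support. Of the 73 alternative ratios of summed members, 70 stayed on the same side of 1. The 3 that crossed it were of mesothelial over mesenchymal cells: in the Nkx3.2 line 0.421 without plate 7B and 0.911 without the cell with the most member counts in each state, in place of 1.23, and in the Nkx2.5 line 1.58 without plate 6A, in place of 0.989. Endocrine cells kept a lower level under each alternative (0.111 to 0.395 of the epithelial level), with 30 to 46 members lower and 0 higher. No paired analysis was possible because no label ties cells to an animal or a litter, and plate letters are not replicate numbers. Cell counts per state, plates that differ within a line and the absence of animals limit each comparison.

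Leaving out each plate in turn gave the following lowest and highest values. The share of all genes called was computed for the main setting only. Counts of members under any alternative therefore have no such share beside them. The endocrine ratio was 0.238 to 0.395, with 35 to 41 members lower and 0 higher. The ratio of other epithelial to mesenchymal cells was 1.18 to 1.26, with 3 to 9 members higher and 0 to 1 lower. In mesothelial over mesenchymal cells the ratio was 0.421 to 1.27 in the Nkx3.2 line, with 0 to 6 members higher and 1 to 41 lower, and 0.410 to 1.58 in the Nkx2.5 line, with 0 to 13 higher and 11 to 35 lower. Without plate 7B only 3 mesothelial cells of the Nkx3.2 line were left. Among mesenchymal cells the Nkx2.5 ratio was 1.17 to 1.46, with 1 to 12 members higher, and the Prox1 ratio 1.21 to 1.99, with 4 to 29 higher. The share of cells with at least 24 members was 42.9 to 62.2% in other epithelial, 10 to 10% in endocrine, 26.5 to 36.4% in Prox1, 20.7 to 24.7% in Nkx2.5 and 26.1 to 27.6% in Nkx3.2 mesenchymal cells, and 0 to 20% in Nkx3.2 and 0 to 50% in Nkx2.5 mesothelial cells.

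Without the cell with the most member counts in each group, the endocrine ratio was 0.211 and the epithelial ratio 1.20. The Nkx3.2 mesothelial ratio was then 0.911, with 3 members lower, and in Nkx2.5 mesothelial cells 33 members were lower, 0 higher, and 0% of cells held at least 24 members. Without the 2 endocrine cells with all 48 members, an alternative chosen after seeing the data, the endocrine ratio was 0.111. With a fold of 1.5, 8 members were higher and 1 lower in epithelial over mesenchymal cells, 1 was higher and 2 lower in Nkx3.2 mesothelial cells, 2 were higher in Nkx2.5 mesothelial cells, and 15 and 21 were higher in Nkx2.5 and Prox1 mesenchymal cells. With a fold of 3 these were 0 higher in epithelial cells, 0 lower in Nkx3.2 and 0 higher in Nkx2.5 mesothelial cells, and 0 and 4 higher in Nkx2.5 and Prox1 mesenchymal cells. A looser or stricter fold changes such counts by its construction, and the cause of the other changes was not tested. With the mean of per-cell CPM 2 members were higher in Nkx2.5 mesothelial and 2 in Nkx2.5 mesenchymal cells. Thinning gave 2 in each of these and 7 in Prox1 mesenchymal cells, and TMM factors gave 3 in Nkx2.5 mesenchymal cells. With a limit of 16 members in place of 24, the mesenchymal share was 42.3% for Nkx3.2, 26.2% for Nkx2.5 and 38.5% for Prox1, which placed Nkx3.2 above Prox1.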

Other observations

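Among the 86 other epithelial cells the number of members detected differed with the genes of pancreatic lineages. Of 16 cells with a count of Neurog3, the factor that starts endocrine fate, 3 held at least 24 members (18.8%, exact 95% binomial interval 4.05 to 45.7%), 2 of 11 on plate 8A and 1 of 5 on 8B. Of the 70 cells without it 41 did (58.6%, 46.2 to 70.2%), 19 of 38 on 8A and 22 of 32 on 8B. Members summed to 4647 CPM in the first and 7846 CPM in the second set. Ptf1a, a factor of multipotent and acinar progenitors, went the other way: 28 of 42 cells with a count (66.7%, 50.5 to 80.4%) and 16 of 44 without (36.4%, 22.4 to 52.2%) held at least 24 members, 11 of 19 against 10 of 30 on 8A and 17 of 23 against 6 of 14 on 8B. With Cpa1, the carboxypeptidase gene of the same progenitors, the shares were 37 of 61 (60.7%) and 7 of 25 (28%). By plate they were 15 of 31 and 6 of 18 on 8A, and 22 of 30 and 1 of 7 on 8B, so that the plates differed in the size of the gap. With Pdx1, the pancreatic homeodomain factor, they were 41 of 74 (55.4%) and 3 of 12 (25%), with 21 of 46 and 0 of 3 on 8A and 20 of 28 and 3 of 9 on 8B. With Hhex, an endodermal factor, 37 of 73 (50.7%) and 7 of 13 (53.8%) did. Sox9, a progenitor factor, had a count in 84 of the 86 cells, of which 43 held at least 24 members, and 1 of the other 2 did. Counts of these genes were taken at full depth and members after thinning. Summed members rose with the number of genes detected in these cells (Spearman correlation 0.469), and the part of this in the gaps was not tested. These cells are of 1 line, so the intervals cover the sampling of cells only, the genes were chosen after other results were known, and no test was run.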
